A study of Gallus gallus with 30 samples.

Results

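The comparison described here sets chicken otocysts kept in culture for 6 h against otocysts taken straight from the egg. The otocyst is the epithelial vesicle that forms the inner ear. The members were 3 left otocysts labelled DMSO_6h (embryos 1, 3 and 5) and 3 left otocysts left untransfected in ovo (embryos 12, 13 and 15), 6 of the 30 libraries of the series. They were chosen by label alone, and the comparison asks how the otocyst transcriptome responds early to explant culture. The study itself tested gain and loss of Notch activity by comparing the right with the left otocyst of an embryo. Each library was made from the RNA of a single otocyst of a White Leghorn embryo.

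Both groups were at embryonic day 2.5 (E2.5) per their labels. The cultured otocysts were dissected at E2.5 in ice-cold medium, freed from mesenchyme and kept floating for 6 h in medium with DMSO, the solvent of the γ-secretase inhibitor LY411575. The right otocyst of the same 3 embryos was cultured with 10 µM LY411575 and serves below as a second set of cultures. The in ovo otocysts were never cultured, but the right otic cup of their embryos had been electroporated with an NICD1 plasmid (the active intracellular domain of NOTCH1) 6 h before collection. They are thus the untouched side of an operated embryo and not otocysts of an intact one, and only embryos with strong transfection had been kept. For context, values are also given for untransfected left otocysts of embryonic day 3 (E3), whose right side carried NICD1 or control mRFP1 plasmid, and for left otocysts of E2.5 cultured for 24 h with DMSO. Culture, DMSO, the hours after E2.5, the treatment of the opposite side and the experimental set all differ between the same 3 and 3 libraries, and these cannot be told apart. Each otocyst came from its own embryo, so the comparison is unpaired, and the embryos' sex was not labelled.

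At this stage the otic epithelium proliferates fast, forms a dorsoventral pattern, and starts to release neuroblasts. Notch signalling works through cleavage of the receptor by γ-secretase and switches on genes of the HES and HEY families, while Wnt signalling works through Frizzled receptors and β-catenin. Sterol synthesis, glycolysis, protein folding and DNA replication are large gene programmes of any growing tissue, and each is controlled by factors of its own.

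Sequencing depth ranged from 8889267 to 15508874 estimated counts per library, and 20886 to 22073 transcripts held at least a whole estimated count. The 10 most abundant transcripts took 4.17% to 4.39% of the counts in the cultures and 4.86% to 5.12% in ovo, so the groups did not overlap in this measure, and its part in the results was not tested. Pairs of libraries within a group differed by far more than sampling noise, with a chi-square per transcript of 16.4 to 27.4, and all 6 were counted as separate samples. P-values measure the spread between embryos of these sets. In bulk RNA, fewer cells of a type and less RNA per cell cannot be told apart.

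Of 20710 tested transcripts 2102 changed (10.1%), with 1035 higher in culture (5.00%) and 1067 lower (5.15%), by edgeR's quasi-likelihood test at an adjusted p below 0.05. The rises were the larger changes. Their median log2 fold change was 1.65, and 807 of the 1035 exceeded 2-fold. The falls had a median of -0.72, and 260 of the 1067 exceeded 2-fold. Across all tested transcripts the median was -0.03 with TMM and 0.00 with median-of-ratios scaling. In TPM, an abundance scaled for transcript length and library depth, the 3 cultures lay wholly above the 3 in ovo otocysts for 1030 of the rises (99.5%) and wholly below for 1055 of the falls (98.9%). The values of the groups did not overlap for 35.1% of all tested transcripts. The count rested on all 6 libraries. It fell to 803 without embryo 13, to 1036 without embryo 5, 1085 without embryo 1, 1279 without embryo 12 and 1301 without embryo 3, and was 1643 without embryo 15.

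**Figure D1:**
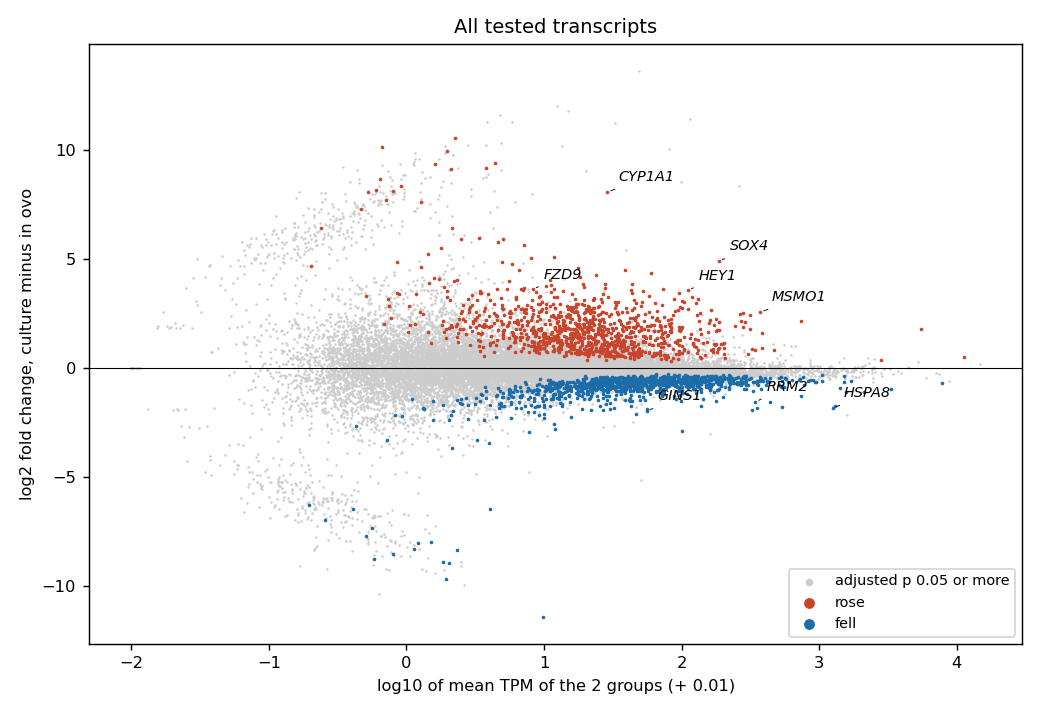
Each point is 1 of the 20710 tested transcripts. The x axis gives the log10 of the mean TPM of the cultured and in ovo groups and the y axis the log2 fold change (culture minus in ovo). The 1035 rises (red) reach further from 0 than the 1067 falls (blue), which lie mostly between 0 and -1 at higher levels.

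Gene symbols could be given to 808 tested transcripts, through the study's own tables of regulated genes. Only ENG, NT5E and THY1 were named through its list of mesenchymal markers. Of these, 158 were called (19.6%), 78 as rises (9.65%) and 80 as falls (9.90%). The tables were made from treated against control otocysts, and 330 of the 808 symbols came from tables that used either the DMSO_6h or the untransfected 6 h libraries. For those the choice of the gene and its level here share libraries, so their direction is not independent evidence. Among the 478 transcripts named by other tables or the marker list alone, 46 rose (9.62%) and 29 fell (6.07%). The groups of genes below hold only named members. Each count therefore stands beside the 19.6% called among named transcripts, not the 10.1% called among all tested transcripts. Whether a list departed from that share was not tested. For the 57 called transcripts examined singly, 37 stayed called whichever of the 6 libraries was left out.

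The otic identity of both groups was checked first. The summed TPM of the 7 measured otic epithelium markers was 612 to 720 in culture and 643 to 715 in ovo, and the ranges overlapped. The 16 mesenchyme markers summed to 787 to 894 in culture and 733 to 824 in ovo. SOX10, ERBB3 and FABP7, the 3 genes listed as markers of crest derivatives and glia, summed to 551 to 627 in culture and 516 to 563 in ovo. Which cells held this RNA was not tested, so the sum does not measure crest or glial content. No marker of these lists was at 0 in a whole group. Which cells held the mesenchyme markers was not tested, so these levels do not show whether mesenchyme remained on either side. A part of mesenchyme in the results below was not tested either. Of the mesenchyme markers 1 rose, 0 fell and 15 did not pass, with a median log2 fold change of 0.04. The riser was ZEB1, a repressor of epithelial genes, with 5.60, 7.76 and 8.53 TPM in culture and 2.80, 3.35 and 4.82 TPM in ovo (log2 fold change 0.91 ± 0.25 SE, edgeR adjusted p = 0.0328). ZEB1 lost its call without embryo 3, 5, 12 or 13, with adjusted p between 0.0966 and 0.122. The untransfected otocysts of E3 held 3.98 to 7.02 TPM of ZEB1 and overlapped with the cultures. ENG, NT5E and THY1, 3 surface markers of mesenchymal cells, gave -0.64, -1.81 and -0.04 with adjusted p of 0.18, 0.0921 and 0.936. COL5A2, a fibrillar collagen, gave -0.49 (adjusted p = 0.0536). It was called as a fall in 6 of 12 other settings, DESeq2 and limma-voom among them (adjusted p = 0.0223 and 0.0428). None of the 6 fits that left out a library of the comparison called it. NT5E was called as a fall by DESeq2 (adjusted p = 0.0129). SOX10, ERBB3 and FABP7 gave -0.07, -0.29 and 0.30, all with adjusted p of at least 0.707. Among the otic markers SOX9 rose, as described with the patterning genes, and 6 did not pass. The epithelial cadherin CDH1 gave -0.39 and the proton channel OTOP1 -0.62, and neither passed the test (adjusted p = 0.447 and 0.415).

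The largest rise among named transcripts was that of CYP1A1, the cytochrome P450 enzyme known as the main target of the aryl hydrocarbon receptor. It was at 46.8, 78.6 and 47.1 TPM in culture and at 0, 0 and 0.600 TPM in ovo. The cultures held 2682 estimated counts and the in ovo otocysts 10, so the gene was close to silent in the egg and clearly transcribed after 6 h. The log2 fold change was 8.08 ± 0.92 (adjusted p = 0.0002), and limma-voom on the 6 libraries alone gave an adjusted p of 0.0522. The size of the fold rested on the few counts of embryo 15. Without that library the log2 fold change was 12.85, and without any 1 of the other 5 it was 7.49 to 8.22. The 3 inhibitor-treated partners reached 45.9, 71.3 and 53.2 TPM, while the 6 untransfected otocysts of E3 stayed between 0 and 0.200 TPM. DMSO cultures of 24 h held 13.8 to 21.2 TPM. Genes near it were looked up after these values were seen. The receptor AHR was at 7.49, 8.97 and 7.10 TPM in culture and 4.54, 4.32 and 4.24 TPM in ovo (0.75 ± 0.22, adjusted p = 0.0484), a call that was lost without any 1 of the 6 libraries (0.0781 to 0.169). Its partners with LY411575 were at 3.84 to 4.73 TPM, at the in ovo level. The related enzymes CYP1B1 and CYP1C1 gave 0.21 and 0.58 and did not pass (adjusted p = 0.852 and 0.731).

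SOX4, a SoxC transcription factor of neural progenitors and differentiating neurons, had the smallest p among all named transcripts. It was at 353, 339 and 402 TPM in culture and at 11.9, 10.5 and 11.7 TPM in ovo. The groups were far apart and each varied little. The level was 29.9-fold higher (log2 fold change 4.90 ± 0.27, adjusted p = 1.72e-06), and 4.85 to 4.96 without any 1 library. It was at 458 to 670 TPM in the LY411575 partners, 9.62 to 19.8 TPM at E3 and 99.3 to 148 TPM after 24 h with DMSO. SOX4 was named through a table that used the 6 h libraries, so its direction is not independent of how it was named.

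**Figure D2:**
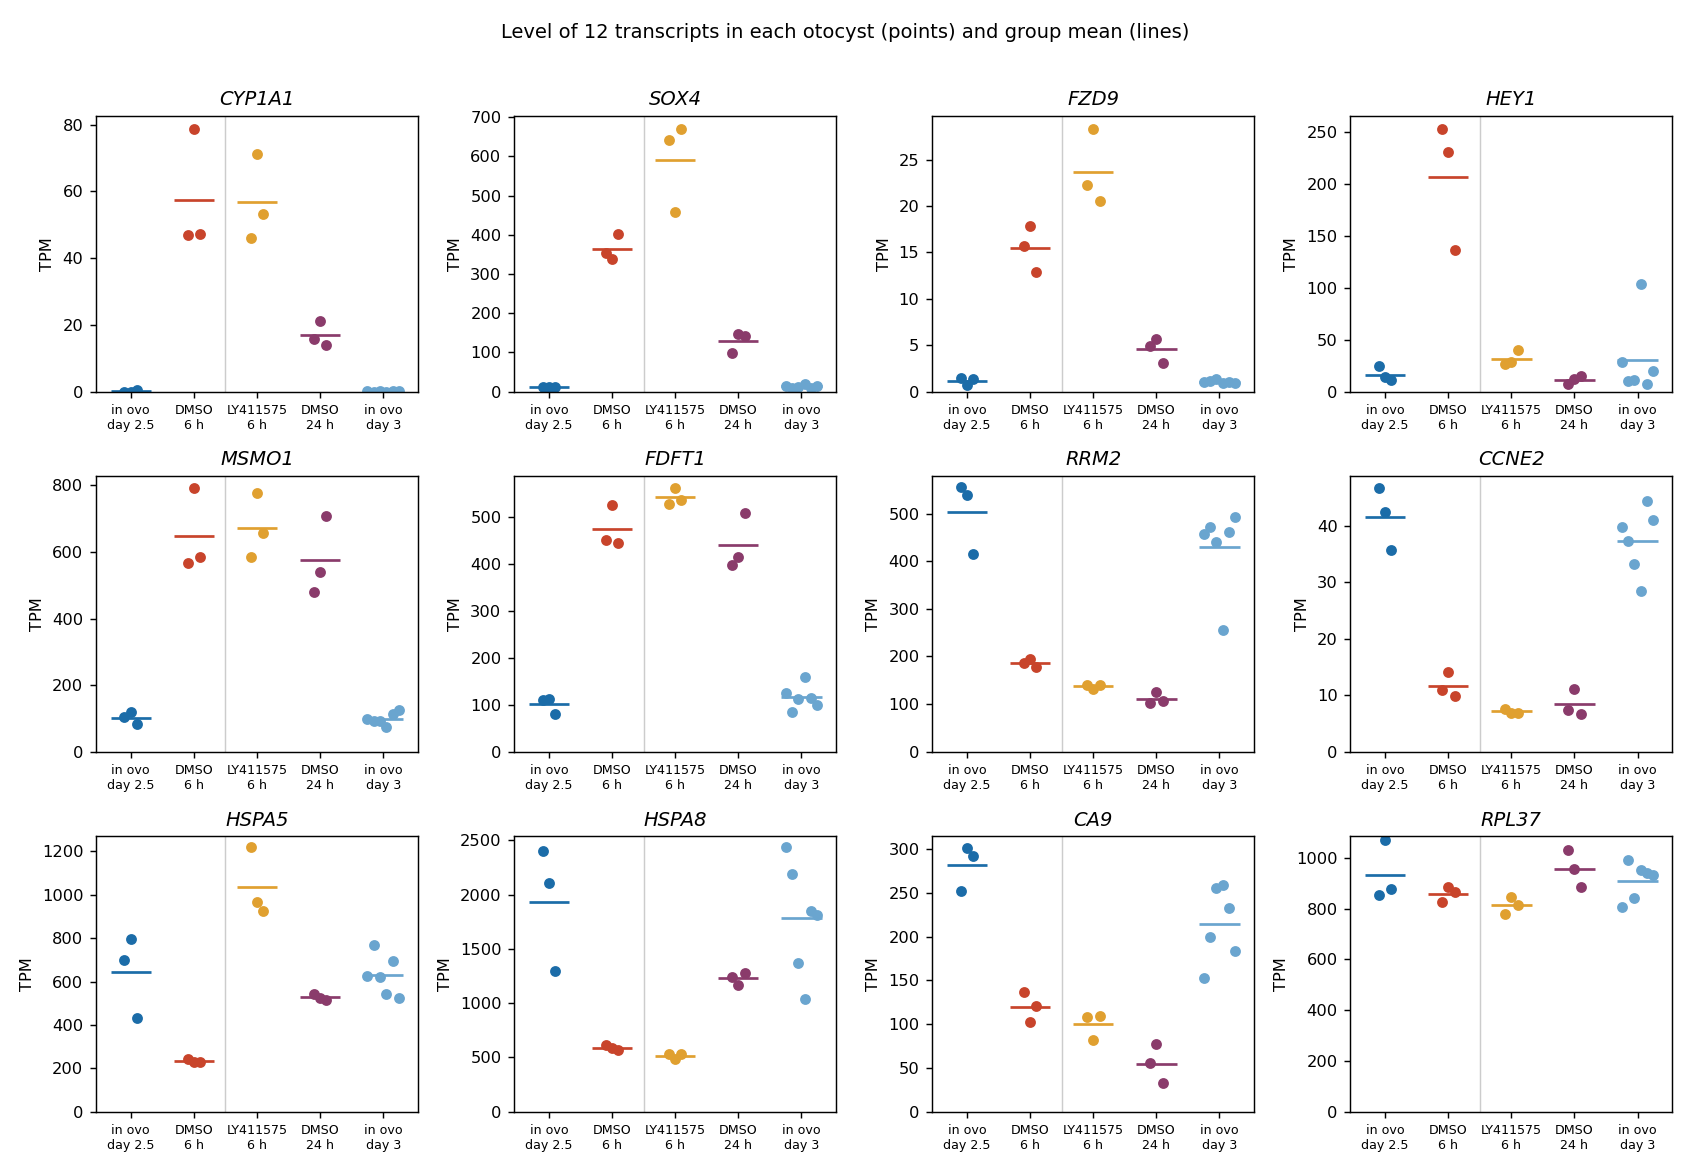
TPM (y axis, from 0) of 12 transcripts in every otocyst (points) with the group mean (lines), for E2.5 in ovo, DMSO 6 h, LY411575 6 h, DMSO 24 h (3 otocysts each) and E3 in ovo (6 otocysts). CYP1A1, SOX4, FZD9, MSMO1 and FDFT1 were high in every culture shown, HEY1 only in the DMSO 6 h group and 1 otocyst of E3, and HSPA5 was low in the DMSO 6 h group but not with LY411575.

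The other 8 of the 10 largest rises, among named transcripts at 5 TPM or more in the higher group and with no overlap between groups, were spread over several functions. FJX1, the vertebrate relative of a Golgi kinase of planar polarity, was at 55.9, 41.6 and 57.9 TPM in culture and 4.94, 2.69 and 2.43 TPM in ovo (3.84 ± 0.72, adjusted p = 0.00503). IGFBP7, a secreted binder of insulin-like growth factors, was at 61.1, 62.5 and 36.5 TPM against 5.98, 5.10 and 4.36 TPM (3.27 ± 0.66, adjusted p = 0.00787). CACNG3, an auxiliary subunit of glutamate receptors, was at 25.7, 34.4 and 15.8 TPM against 1.29, 2.74 and 2.04 TPM (3.55 ± 0.59, adjusted p = 0.00242). Non-overlap of the groups was a condition of this choice and adds no support. The 3 calls held without any 1 library. Weaker support stood behind ACSBG2, an acyl-CoA synthetase, at 3.57 to 7.22 TPM against 0.328 to 0.788 TPM (3.35 ± 0.85, adjusted p = 0.0242). It lost its call without embryo 3, 5, 13 or 15 (0.0607 to 0.111). MAU2, a cohesin loading factor, went to 8.69 to 13.4 TPM from 0.217 to 0.932 TPM (4.00 ± 1.05, adjusted p = 0.0288), and lost its call without any 1 of the 6 libraries (0.0554 to 0.126). FZD9, HEY1 and PHLDA1, the rest of the 10, are given with their pathways.

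Most tested enzymes of sterol synthesis rose, while of the fatty acid genes in the same list only SCD passed the test. These pathways are known to be switched on by the SREBP factors when a cell's sterol runs low. Of 11 tested transcripts of 10 genes 9 rose, 0 fell and 2 did not pass, and all 11 fold changes were positive with a median of 1.94. Of the 9, 5 were named by tables that used none of these libraries. MSMO1, a sterol demethylase, was at 566, 792 and 584 TPM in culture and 105, 120 and 81.8 TPM in ovo (2.57 ± 0.24, adjusted p = 4.03e-05). FDFT1, which makes squalene, was at 451, 525 and 445 TPM against 110, 112 and 79.4 TPM (2.13 ± 0.21, adjusted p = 7.47e-05). HSD17B7, a late enzyme of the pathway, was at 68.5, 89.5 and 74.1 TPM against 19.7, 16.0 and 16.4 TPM (2.06 ± 0.21, adjusted p = 8.43e-05). In each case every culture lay above every in ovo otocyst by a wide margin. Further risers were both CYP51A1 transcripts (2.49 and 2.43), FDPS (1.80), the sterol carrier STARD4 (1.94) and the desaturase SCD (0.96). The desaturase FADS2 and malic enzyme ME1 gave 0.63 and 0.50 (adjusted p = 0.118 and 0.464).

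The 9 risers were high in the 6 h cultures with and without inhibitor. For all 9 risers the 3 LY411575 partners and the 3 DMSO otocysts together lay above the 6 in ovo otocysts of E2.5, and the DMSO otocysts lay above all 9 untransfected in ovo otocysts. Among all 1035 rises the same held for 95.1% and 94.4%. Relative to the E2.5 in ovo mean, the median level of the 9 was 4.45-fold with DMSO at 6 h, 5.39-fold with LY411575 at 6 h, 4.05-fold with DMSO at 24 h (1.19-fold for SCD) and 0.977-fold in ovo at E3. Without any 1 library, 8 or 9 of the 11 were called.

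In the Notch pathway 1 of 11 tested members rose, 0 fell and 10 did not pass, with a median log2 fold change of 0.32. The riser was HEY1, a transcriptional repressor that Notch activates. It was at 253, 231 and 136 TPM in culture and 24.3, 14.0 and 10.7 TPM in ovo, a difference of 3.57 ± 0.89 (adjusted p = 0.0227). Every culture was more than 5 times above the highest in ovo value. The inhibitor-treated partners of the same embryos were at 26.5, 28.6 and 40.0 TPM, all above the highest in ovo value and on average 1.94 times the in ovo mean, beside 12.7 times with DMSO. Of the 11 tested Notch members 7, HEY1 among them, were named by tables that used the 6 h libraries. The gap between DMSO and LY411575, and the direction of the rise, are thus not independent of how the gene was named. The paper itself reports a lower level of this gene with the inhibitor than with DMSO in the shorter cultures. DMSO cultures of 24 h were back at 7.18 to 14.5 TPM of HEY1. In 1 E3 otocyst, that of embryo 4, HEY1 was at 104 TPM, and in the other 5 at 7.24 to 28.0 TPM. The call held without embryo 5 and was lost without any 1 of the other 5 libraries of the comparison (0.0509 to 0.102). With the E3 library of embryo 4 left out of the estimate of spread, the adjusted p was 0.000938, with all 30 libraries it was 0.0519, and DESeq2 gave none.

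The remaining Notch genes gave no call. The targets HES1, NRARP, HES5 and HES4 gave 0.92, 1.28, 0.52 and 0.08 (adjusted p = 0.266, 0.238, 0.583 and 0.942). HES1 was at 59.8, 51.0 and 54.8 TPM in culture and 28.8, 16.1 and 37.9 TPM in ovo, and NRARP, a feedback inhibitor, at 80.2, 53.3 and 66.5 TPM against 33.2, 15.6 and 28.8 TPM. In both genes the groups did not overlap. The ligands JAG2 and DLL1 gave 0.67 and 0.32 (adjusted p = 0.218 and 0.454). The receptors NOTCH1 and NOTCH2 gave -0.24 and 0.05, the glycosyltransferase LFNG 0.09 and the DNA-binding partner RBPJ -0.48, with adjusted p of 0.35 or more. Fitted on the 6 libraries alone, edgeR called 3 Notch members as rises (HEY1, NRARP and JAG2, the latter pair with adjusted p of 0.026 and 0.017). DESeq2 and limma-voom each called 4 there, with HES1 added (adjusted p = 0.0175 and 0.0342). Without the E3 library of embryo 4, edgeR gave NRARP, HES1 and JAG2 adjusted p of 0.0714, 0.0778 and 0.0918. HEY1 was thus the only call of the main fit, but not of every setting.

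In the Wnt list 3 of 21 members rose and 0 fell, with a median of 0.17. Of the 3, only 1 was named by tables that used none of these libraries. FZD9, a Frizzled receptor, was at 15.7, 17.8 and 12.9 TPM in culture and 1.45, 0.727 and 1.37 TPM in ovo (3.62 ± 0.35, adjusted p = 5.94e-05). FZD7, another Frizzled, was at 111, 115 and 119 TPM against 22.3, 12.1 and 18.8 TPM (2.61 ± 0.51, adjusted p = 0.00628). NOTUM, a secreted enzyme that inactivates Wnt ligands and is itself a Wnt target, was at 45.8, 36.7 and 52.1 TPM against 10.9, 10.5 and 7.40 TPM (2.12 ± 0.44, adjusted p = 0.00868). The 3 calls held without any 1 library, and in none of the genes did the groups overlap. All 3 genes were also above in ovo in the LY411575 partners, where FZD9 reached 20.5 to 28.3 TPM. The core members CTNNB1 (β-catenin), GSK3B and the target AXIN2 gave 0.01, 0.06 and 0.10. SFRP1, a secreted Wnt antagonist, gave -0.80 and did not pass (adjusted p = 0.157).

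The next list holds genes of the immediate early and acute stress response. Of 20 tested transcripts 2 rose, 0 fell and 18 did not pass, with a median of 0.40, and 11 had an unadjusted p below 0.05. Among all tested transcripts 10.1% were called and 24.4% had an unadjusted p below 0.05. Among named transcripts 19.6% were called. The summed level of the list was 975 to 1040 TPM in culture and 631 to 760 TPM in ovo, so the groups were apart in the sum. Of the 20 fold changes 11 were positive and 9 negative. Single members with large differences, such as PHLDA1 below, weigh most in the sum, so it does not show a rise across the list. NFKBIA, the inhibitor and target of NF-κB, was at 47.0, 46.8 and 33.2 TPM in culture and 10.4, 5.81 and 10.2 TPM in ovo (2.18 ± 0.34, adjusted p = 0.0017). PHLDA1, a gene induced by growth factors and stress, was at 165, 363 and 149 TPM against 29.5, 14.3 and 38 TPM (3.01 ± 0.80, adjusted p = 0.0291). It lost its call without embryo 3, 12, 13 or 15 (0.0592 to 0.13). THBS1, a matrix protein, gave 1.31 (adjusted p = 0.065) and the growth arrest gene BTG2 0.49 (0.0805). EGR1 and ATF3, classical genes of acute injury, were low in both groups, with EGR1 at 1.80 to 2.08 TPM in culture and 1.10 to 3.23 TPM in ovo (-0.18, adjusted p = 0.946). ATF3 gave 1.12 (adjusted p = 0.363). On the 6 libraries alone edgeR called 6 rises and 2 falls, and DESeq2 8 rises and 3 falls. Of the 2 main rises, NFKBIA and PHLDA1, 1 was named by tables that used none of these libraries.

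Many genes of the cell cycle, a list that spans DNA replication and mitosis, fell. All 26 tested members of the cell cycle list had a negative fold change, with a median of -0.76 beside -0.03 over all tested transcripts. 15 fell, 0 rose and 11 did not pass. Of the 15, 12 were named by tables that used these libraries, and 3 by other tables. CCNE2, the cyclin that drives entry into S phase, was at 10.9, 14.2 and 9.79 TPM in culture and 46.8, 42.5 and 35.7 TPM in ovo (-1.94 ± 0.25, adjusted p = 0.000461). ORC1, a subunit of the origin recognition complex, was at 24.3, 24.4 and 20.4 TPM against 65.9, 61.1 and 56.4 TPM (-1.51 ± 0.18, adjusted p = 0.000334). RRM2, the ribonucleotide reductase subunit that supplies deoxynucleotides, was at 187, 194 and 177 TPM against 556, 539 and 416 TPM (-1.54 ± 0.22, adjusted p = 0.000906). The cultures held about a constant low level while the egg varied more. DTL, which targets replication licensing factors for degradation, was at 13.8, 19.1 and 12.7 TPM against 58.2, 50.2 and 41.1 TPM (-1.81 ± 0.26, adjusted p = 0.00113). GINS1, a subunit of the replicative helicase, went from 105, 84.6 and 74.1 TPM to 24.4, 25.4 and 21.9 TPM (-1.97 ± 0.32, adjusted p = 0.00215). DCTD, which feeds thymidylate synthesis and stood outside the list, went from 281, 305 and 190 TPM to 98.1, 110 and 85.2 TPM (-1.51 ± 0.25, adjusted p = 0.00232).

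Members of the list differed in the size of the fall. The replicative genes MCM2, MCM4, MCM6 and PCNA gave -1.07, -0.81, -0.77 and -0.85 and passed the test, while MCM3 gave -0.87 and did not (adjusted p = 0.0648). Among mitotic genes, the cyclin CCNB1 gave -0.60 and passed (adjusted p = 0.00815). The mitotic kinesin KIF15 was also called as a fall, with DMSO 6 h cultures at 0.724 of its in ovo mean. CDK1 and CDC20, looked up after the values were seen, gave -0.37 and -0.14 and did not pass (adjusted p = 0.381 and 0.771). On the 6 libraries alone CDK1 was called as a fall by edgeR, DESeq2 and limma-voom (-0.31, -0.33 and -0.31, with adjusted p of 0.0384, 6.67e-07 and 0.0315). The difference between replicative and mitotic genes was not tested. In the LY411575 partners all 15 were also below the 3 in ovo otocysts, with a median of 0.479 of the in ovo level beside 0.553 with DMSO. That median was 0.267 after 24 h with DMSO and 0.924 in ovo at E3. Of the 15, 11 lay below all 9 untransfected in ovo otocysts. Among all 1067 falls 65.8% lay below all 9, and 90.3% had the LY411575 otocysts below in ovo. A difference of the cell cycle genes from other falls in these respects was not tested. Between 10 and 15 members were called without any 1 library, with 10 when embryo 1, 5, 12 or 13 was left out.

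Several genes of a list of endoplasmic reticulum (ER) chaperones and related ER genes fell in the DMSO cultures. ER chaperones fold secreted and membrane proteins and rise in the unfolded protein response. Not all members are chaperones, and XBP1, SEC61A1 and DERL3, which are not, were among those that fell. Of 20 tested members 10 fell, 0 rose and 10 did not pass, with a median of -0.48. HSP90B1 was at 249, 260 and 268 TPM in culture and 986, 910 and 549 TPM in ovo (-1.76 ± 0.19, adjusted p = 0.000105). HSPA5, the main ER chaperone and sensor of unfolded protein, was at 243, 228 and 229 TPM against 701, 795 and 433 TPM (-1.57 ± 0.20, adjusted p = 0.000481). The otocyst of embryo 15 was the lowest of the in ovo set in both genes and still above every culture. CANX, a lectin chaperone, was at 135, 173 and 186 TPM against 276, 286 and 278 TPM (-0.86 ± 0.13, adjusted p = 0.00111). PDIA4, a disulphide isomerase, was at 212, 244 and 230 TPM against 382, 382 and 317 TPM (-0.76 ± 0.14, adjusted p = 0.00554). These 4 calls held without any 1 library. The list's count was 6 without embryo 1, 5, 12 or 13.

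The inhibitor-treated cultures of the same embryos did not share the lower summed level of the ER list. The summed level of the 20 members was 2020 to 2120 TPM with DMSO, 2970 to 4110 TPM in ovo and 3950 to 4410 TPM with LY411575. The 10 called members ran from 0.767 to 2.17 times the in ovo mean. HSPA5 was at 1220, 966 and 927 TPM and HSP90B1 at 967, 816 and 1120 TPM with LY411575. For only 2 of the 10 called members were all 3 LY411575 otocysts below the 3 in ovo otocysts. Their median level relative to the E2.5 in ovo mean was 0.610 with DMSO at 6 h, 1.09 with LY411575 at 6 h, 0.895 with DMSO at 24 h and 0.977 in ovo at E3. Of the 20 tested members 17 were named by tables that used the 6 h libraries, and 0 of the other 3 was called, so the direction of this group is not independent of how its genes were named.

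**Figure D3:**
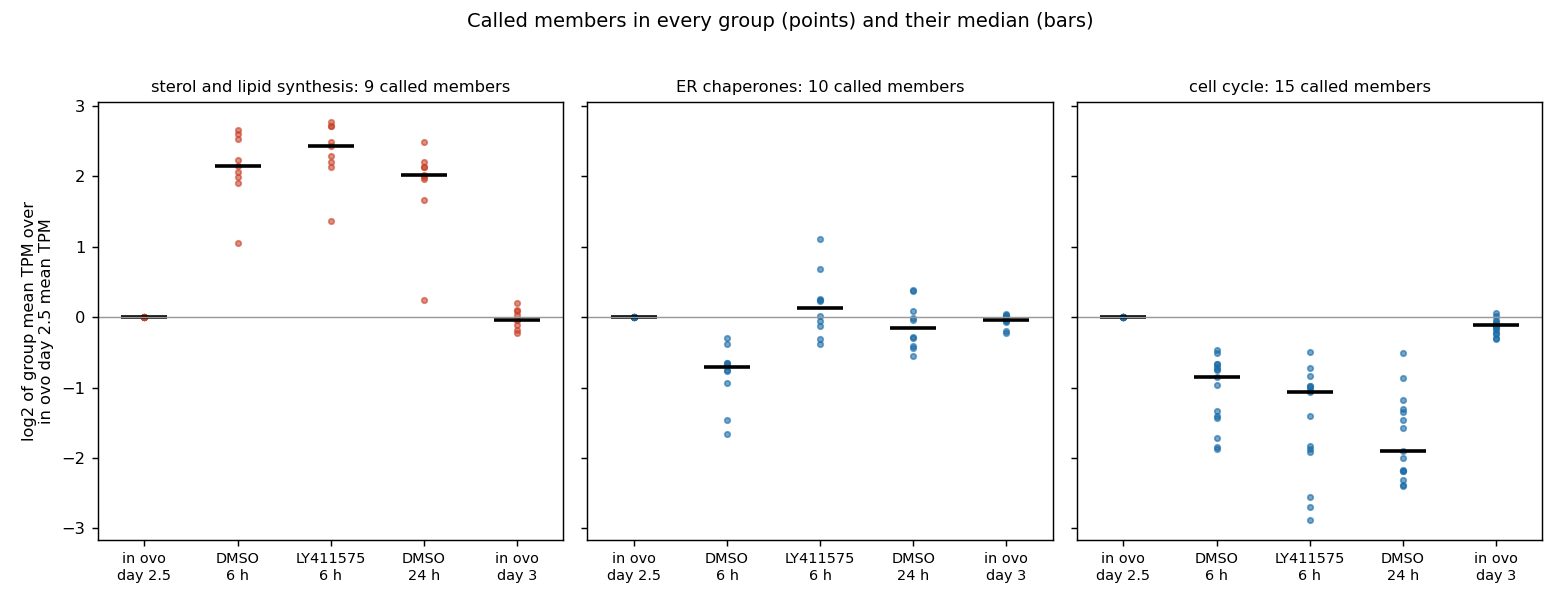
Group mean TPM of each called member over its E2.5 in ovo mean (log2, y axis) in 5 groups. The lists are sterol and lipid synthesis (9 members), ER chaperones with related ER genes (10) and cell cycle (15). Bars give the median of the members. The members were chosen by their call in the DMSO 6 h against E2.5 in ovo comparison, so the DMSO 6 h values follow from that choice. The other 3 groups are divided by the same E2.5 in ovo mean and are not free of it either. The median of the sterol and lipid genes was high in the 3 culture groups, though SCD was near 0 at 24 h. That of the ER list was near 0 with LY411575 while single members spread to both sides. The median of the cell cycle genes was lowest at 24 h, though not for every member.

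Of chaperones outside the ER, 9 members were tested. 3 fell, 0 rose and 6 did not pass, and all 9 fold changes were negative with a median of -0.60. HSPA8, the constitutive cytosolic HSP70, was at 616, 585 and 566 TPM in culture and 2400, 2110 and 1300 TPM in ovo (-1.83 ± 0.29, adjusted p = 0.00184). PPID, a cyclophilin that works with HSP90, was at 195, 209 and 212 TPM against 384, 384 and 337 TPM (-0.94 ± 0.12, adjusted p = 0.000358). HSPD1, the mitochondrial HSP60, was at 294, 423 and 337 TPM against 540, 527 and 453 TPM (-0.62 ± 0.16, adjusted p = 0.0264), and lost its call without embryo 1, 5, 12 or 13 (0.0962 to 0.114), and on the 6 libraries alone (0.0839). In the 3 genes the LY411575 partners were below in ovo as well, with HSPA8 at 488 to 534 TPM and PPID at 177 to 196 TPM. A difference from the ER list in this respect was not tested. GRPEL2, a mitochondrial co-chaperone, gave -0.62 (adjusted p = 0.118).

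The next list holds genes of glycolysis and known targets of the hypoxia-inducible factor. Of 13 tested members 3 fell, 0 rose and 10 did not pass, with 12 negative fold changes and a median of -1.19. CA9, a carbonic anhydrase and a common marker of hypoxia, was at 137, 102 and 121 TPM in culture and 252, 301 and 292 TPM in ovo (-1.33 ± 0.27, adjusted p = 0.0076). PGAM1, a glycolytic mutase, was at 972, 1040 and 1040 TPM against 1750, 1920 and 1720 TPM (-0.92 ± 0.18, adjusted p = 0.00637). ZNF395, a transcription factor, was at 9.10, 8.32 and 7.10 TPM against 19.1, 15.3 and 18.2 TPM (-1.19 ± 0.31, adjusted p = 0.0259), and lost its call without any 1 of the 6 libraries (0.0539 to 0.109). In the 3 genes the groups did not overlap.

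The members with the largest differences in this list did not pass. LDHA, which makes lactate, was at 42.1, 36.3 and 35.6 TPM in culture and 133, 345 and 379 TPM in ovo (-3.00 ± 1.10, adjusted p = 0.104). The lactate exporter SLC16A3 gave -2.45 (0.169) and the glycolytic regulator PFKFB3 -1.68 (0.186), both named after their values were seen, as was LDHA. P4HA1, a collagen hydroxylase, gave -1.34 (0.0536). These genes varied widely in ovo. The E3 library of embryo 4 held 2310 TPM of LDHA and the other 5 between 48.8 and 712 TPM. Without it 8 of the 13 fell, LDHA among them (adjusted p = 0.0163), and the fit on the 6 libraries alone called 10. The NICD1-electroporated partners in ovo held 23.2, 35.4 and 45.1 TPM of LDHA, at the level of the cultures, so the high LDHA of the untransfected E2.5 otocysts was not shared by their own right sides. The summed level of the whole list was 2000 to 2380 TPM in these uncultured NICD1 otocysts, 2110 to 2190 TPM in the DMSO cultures and 3320 to 4030 TPM in the untransfected otocysts. Of the 3 called members of the list, 1 (CA9) had all 6 cultured otocysts below all 6 in ovo otocysts of E2.5. 10 of the 13 members were named by the 6 h tables, and 0 of the other 3 was called. The direction of this group is thus not independent of how its genes were named.

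Genes of FGF, BMP and TGF-β signalling gave 1 rise and 1 fall in 19, with a median of 0.26. TGFB2, a TGF-β ligand, was at 17.6, 20 and 17.7 TPM in culture and 4.08, 10.5 and 6.42 TPM in ovo (1.29 ± 0.36, adjusted p = 0.0385). ID2, an inhibitor of bHLH factors and a BMP target, was at 165, 301 and 167 TPM against 421, 298 and 424 TPM (-0.93 ± 0.26, adjusted p = 0.0367), and here the groups overlapped. TGFB2 lost its call without embryo 1, 3, 5, 12 or 15 (0.0817 to 0.132) and ID2 without embryo 1, 5, 12, 13 or 15 (0.0573 to 0.149). TGFB3 gave 1.00 (0.0607) and ID1 -0.71 (0.0729).

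Among 15 transcription factors and markers of otic pattern 2 rose and 1 fell, with a median of 0.00. DACH1, a transcriptional cofactor of the otic vesicle, was at 125, 102 and 97.5 TPM in culture and 36.9, 31.3 and 47.0 TPM in ovo (1.40 ± 0.37, adjusted p = 0.029). SOX9, an early otic factor, was at 51.3, 54.7 and 53.9 TPM against 16.5, 23.8 and 28.9 TPM (1.12 ± 0.33, adjusted p = 0.0479). MSX2, a target of BMP signalling, was at 31.2, 22.4 and 30.3 TPM against 42.7, 51.0 and 60.9 TPM (-0.98 ± 0.22, adjusted p = 0.0133). The cultures and the E2.5 in ovo otocysts were apart in all 3 genes, but the calls were fragile. At E3 the untransfected otocysts held 24.1 to 60.4 TPM of SOX9, a range that takes in all 3 cultures. For DACH1 and MSX2 the E3 otocysts, at 16.0 to 58.7 and 45.1 to 61.7 TPM, did not overlap with the cultures. DACH1 and SOX9 lost theirs without any 1 of the 6 libraries (0.0527 to 0.125 and 0.0676 to 0.162), and MSX2 without embryo 3 or 13 (0.0605 and 0.0552). TBX2 gave 0.86 (0.154).

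Of 24 tested transcripts of neurogenesis genes 1 rose, SOX4, and 1 fell, with a median of 0.18. TUBB2B, a neuronal β-tubulin, was at 387, 490 and 565 TPM in culture and 672, 742 and 704 TPM in ovo (-0.65 ± 0.15, adjusted p = 0.014), and lost its call without embryo 1 or 13 (0.0572 and 0.0701). SOX11, the SoxC partner of SOX4, was at 319, 327 and 404 TPM against 143, 75.5 and 151 TPM (1.42 ± 0.47, adjusted p = 0.071). NEUROD1, a proneural factor of otic neuroblasts, was at 97.6, 136 and 127 TPM against 64.0, 22.9 and 46.5 TPM (1.35 ± 0.43, adjusted p = 0.0643). In both genes the cultures lay above all in ovo otocysts without passing the test. Both were called by limma-voom (adjusted p = 0.0414 and 0.0372) and by DESeq2 (0.0127 and 0.012). Each was called in 6 of 12 other settings, and in 0 of the 6 fits that left out 1 library of the comparison.

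In the extracellular matrix list 1 of 10 rose and 2 fell, with a median of -0.19. HAS2, a hyaluronan synthase, was at 34.7, 31.1 and 24.7 TPM in culture and 73.8, 82.5 and 77.2 TPM in ovo (-1.47 ± 0.29, adjusted p = 0.00756). COL9A1, a cartilage-type collagen, was at 54.8, 44.8 and 49.9 TPM against 107, 93.9 and 99.0 TPM (-1.11 ± 0.16, adjusted p = 0.00123). LAMC1, a laminin chain of the basement membrane, was at 74.8, 76.0 and 74.9 TPM against 32.0, 20.5 and 36.3 TPM (1.26 ± 0.32, adjusted p = 0.0235), and lost its call without embryo 1, 3, 5, 12 or 13 (0.052 to 0.112). Its LY411575 partners were at 79.1 to 84.6 TPM. COL9A2 gave -0.40 (0.258).

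The actin cytoskeleton list held 0 calls in 19 transcripts with edgeR, with a median of -0.50. At an unadjusted p below 0.05, 5 of the 19 passed, beside 24.4% of all tested transcripts. In this list THBS1, MSN, TPM1 and ARPC5 had the smallest p, with log2 fold changes of 1.31, -0.80, -0.50 and -0.28 and adjusted p of 0.065 to 0.187. DESeq2 called 1 of the 19 as a rise. On the 6 libraries alone edgeR called 1 rise and 3 falls, DESeq2 1 rise and 7 falls, and limma-voom 1 rise and 4 falls. The 14 ribosomal protein transcripts held 0 calls with edgeR, DESeq2 and limma-voom, and 0 at an unadjusted p below 0.05, with a median of -0.05 and a range of -0.29 to 0.03. RPS23, RPS24, RPL29 and RPL37 had fold changes between -0.29 and -0.18. Their summed level was 15700 to 17000 TPM in culture and 15100 to 17200 TPM in ovo, and the ranges overlapped.

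**Figure D4:**
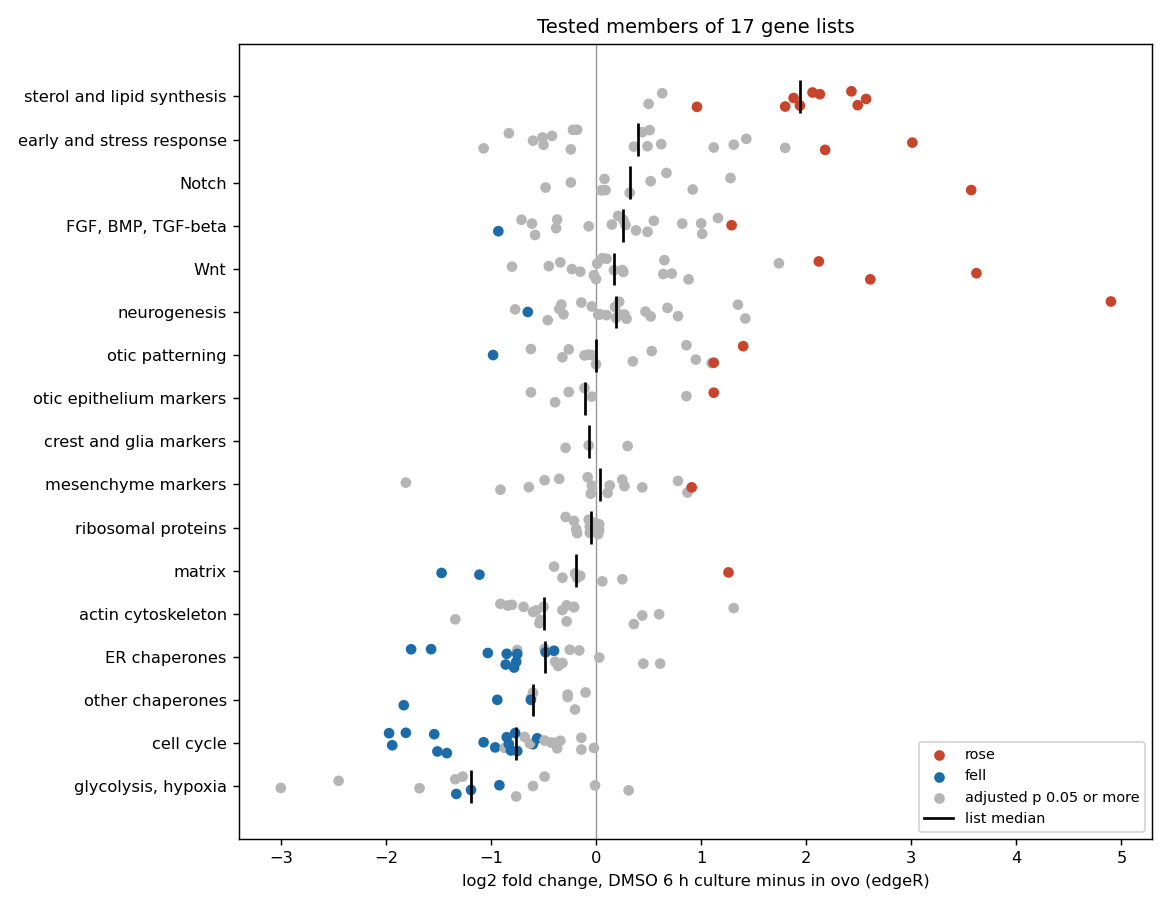
Log2 fold change (x axis, DMSO 6 h culture minus in ovo, edgeR) of every tested member of 17 gene lists, with called rises in red, called falls in blue and the list median as a black bar. Sterol and lipid synthesis lies to the right, with 9 of 11 called. Cell cycle (15 of 26 called) and both chaperone lists have medians below 0, and ribosomal proteins lie near 0.

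SLC26A9, an anion channel of epithelia, completed the 10 largest falls chosen in the same way as the rises. It was at 5.26, 2.13 and 4.85 TPM in culture and 11.5, 11.4 and 16.8 TPM in ovo (-1.80 ± 0.32, adjusted p = 0.00349). Non-overlap of the groups was a condition of that choice, and the call held without any 1 library.

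Most called transcripts, 1944 of 2102, carry no symbol here. ENSGALT00000099194.1 was at 4.85, 7.15 and 14.3 TPM in culture and at 0 in the 3 in ovo otocysts, with 270 estimated counts against 0. It was at least 93.3-fold higher, taking 3 counts over the in ovo group as the floor, and its call (adjusted p = 0.0211) was lost without embryo 5, 12, 13 or 15 (0.0554 to 0.0796). ENSGALT00000093963.1 was at 7.86, 4.95 and 10.0 TPM against 0, with 213 counts against 0, and at least 73.7-fold higher (adjusted p = 0.0044). Both were also present in all 3 LY411575 partners, at 3.68 to 7.35 TPM and 10.1 to 15.9 TPM. ENSGALT00000020376.6 was at 0 in the 3 cultures and at 25 and 33.9 TPM in embryos 12 and 13, but at about 0 in embryo 15. It was at least 321-fold lower over the group (adjusted p = 0.00879), and limma-voom gave it an adjusted p of 0.609. ENSGALT00000017683.6 was at 6.10, 8.49 and 9.43 TPM in ovo and at most 0.228 TPM in culture (adjusted p = 0.0414), and lost its call without any 1 of the 6 libraries (0.0709 to 0.132). E3 otocysts ranged from 0 to 10.4 TPM for the latter transcript.

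Other libraries of the series showed how far the called differences reached. Of the 1035 rises, the 3 LY411575 otocysts of the same embryos lay above the 3 in ovo otocysts in 1017 (98.3%). All 6 cultured otocysts lay above the 6 E2.5 in ovo otocysts, NICD1 partners included, in 984 (95.1%). Of the 1067 falls the same held for 963 (90.3%) and 824 (77.2%). Among all tested transcripts the shares were 36.4% and 21.0%. LY411575 and DMSO partners share embryos, and the in ovo values are common to both, so these shares are not independent support.

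The in ovo otocysts of E3 extended this comparison. The 3 DMSO otocysts lay above all 9 untransfected in ovo otocysts of E2.5 and E3 for 977 of the 1035 rises (94.4%), and below all 9 for 702 of the 1067 falls (65.8%), beside 17.6% of all tested transcripts. The difference between these shares was not tested. The DMSO and E2.5 in ovo otocysts made the calls, and the E3 otocysts entered the shared estimate of spread. These shares are thus not independent support either.

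A single E3 otocyst, of embryo 4, lay on the side of the cultures more often than the others. It held the highest of the 6 E3 values for 559 of the 1035 rises (54.0%), where the other 5 embryos held it for at most 20%. It held the lowest for 525 of the 1067 falls (49.2%), beside 5.53% to 22.1% for the others. Among all tested transcripts embryo 4 was highest in 23.4% and lowest in 23.7%. Its levels of PHLDA1, FJX1 and IGFBP7 were 107, 17 and 22.3 TPM, below the lowest culture of each gene, and its RRM2 was 256 TPM, between the cultures and the other E3 otocysts at 440 to 492 TPM. Its MSMO1 was at 75.3 TPM, the lowest of the 6, and its CYP1A1 at 0. In the glycolysis list it lay on the far side from the cultures, as the highest of the 6 E3 otocysts for LDHA (2310 TPM), SLC16A3 (508 TPM), PFKFB3 (64.5 TPM), P4HA1 (169 TPM), PGAM1 (2520 TPM), CA9 (259 TPM) and ZNF395 (28.3 TPM). It thus lay toward the cultures in some genes and away from them in others. Without this library 2734 transcripts were called, and 2098 of the 2102 were among them.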

How the data were processed

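Per the labels and the study's methods, RNA of integrity 9 or more was amplified with SMART-Seq v4, made into Nextera XT libraries and sequenced as paired ends. The kit does not mark strand. Tools in the submitters' notes are bcl2fastq and kallisto with build GRCg6a, without a version number. For every otocyst the authors deposited an estimated count, a TPM value and the length of 28756 Ensembl transcripts. No normalisation was applied to the deposited estimated counts, and kallisto divides reads between transcripts that share sequence, so a change can be one between isoforms or near copies. The deposited TPM, which the authors' kallisto run corrected for length and depth, did not enter the main test. It served for levels, for the overlap of groups and for the 5 TPM limit on named genes. The alternative with counts rebuilt from TPM used it as well.

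Estimated counts were rounded and tested with edgeR 4.0.16 (R 4.3.3): filterByExpr with a minimum count of 10, TMM, glmQLFit (robust) and glmQLFTest on group means of the 15 left otocysts (11 residual degrees of freedom), contrast DMSO_6h minus untransfected_6h, Benjamini-Hochberg over all tested transcripts, threshold 0.05. The 15 libraries share 1 estimate of spread. Log2 fold changes carry their SE. TMM factors were 1.041 to 1.102 in culture and 0.971 to 1.047 in ovo. The script was tested on simulated data. A floor of 3 counts over a group was used for groups at 0, and covers counting error only.

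Symbols came from the study's tables of regulated genes and its list of mesenchymal markers, 810 of 28756 transcripts. 1 transcript with 2 different symbols was left unnamed, and the 3 mesenchymal markers were matched without version. The RefSeq table at hand (25635 rows) matched 0 identifiers. Named in the text were the 4 members of each list with the smallest p, every Notch member, the 10 largest named rises and falls at 5 TPM or more without overlap, up to 2 unnamed rises and falls, and the markers ENG, NT5E and THY1. 1 result that this rule names is not reported here. Others are said to be looked up after their values were seen, or stand as examples of a list. The comparison, the members and the lists were chosen with earlier results of these data known. Alternatives were median-of-ratios scaling, other filters, DESeq2 1.42.0, limma-voom (limma 3.58.1), other sets of libraries, counts rebuilt from TPM, and leaving out single libraries.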

Additional observations from a re-analysis of the deposited data

Results flagged for a closer look

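In the 6 untransfected otocysts of E3, whose values stand beside the comparison, 15 of 105 transcripts checked had 1 otocyst far from the other 5 (Dixon's test at 95%, for which chance alone flags about 1 group in 20). In 11 of the 15 the otocyst was that of embryo 4. It was the highest for ATF3 (9.04 TPM), CACNG3 (13.5 TPM), CYP1B1 (20.5 TPM), FZD7 (54.7 TPM), HES1 (99.2 TPM), HES4 (130 TPM), HEY1 (104 TPM), LDHA (2310 TPM) and SLC16A3 (508 TPM). It was the lowest for MCM2 (138 TPM) and RRM2 (256 TPM). The other 4 belonged to other embryos, with EGR1 at 7.55 TPM and FABP7 at 365 TPM in embryo 24, MSX2 at 61.7 TPM in embryo 21 and OTOP1 at 48.8 TPM in embryo 22. No explanation was tested. Groups of 3, the cultures and the E2.5 otocysts among them, were too small for this check.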

How the results depend on the processing

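The 2102 calls (1035 rises, 1067 falls) were within 1.5 times under median-of-ratios scaling (2001), no filter (1813), a minimum count of 50 (2359), limma-voom (2307), all 30 libraries (1455) and counts rebuilt from TPM (2105). The fit on all 30 libraries used group means only and ignored that left and right otocysts share an embryo. DESeq2 called 3332, with 1783 rises. edgeR on the 6 libraries alone called 2701, of which 1660 (61.5%, beside 49.2%) were rises. Of the alternatives chosen after seeing the data, DESeq2 on the 6 libraries alone called 4166 (2203 rises, 1963 falls), limma-voom on them 2970 (1835 rises), edgeR without the 24 h cultures 2184, and edgeR without the E3 library of embryo 4 2734 (1300 rises, 1434 falls). Leaving out 1 of the 6 libraries gave between 803 and 1643 calls, between 431 and 748 rises and between 372 and 929 falls, where the 2 libraries that remain in a group are assumed to vary like the other groups. No setting called any of the 2102 transcripts in the opposite direction, and the direction of those that lost their call was not checked. No paired analysis was possible because the cultured and in ovo otocysts came from different embryos and share no replicate number. For the 105 transcripts examined singly, 1681 values under alternatives were on the same side of the threshold. Another 119 lost a call, 85 gained one and 0 were called in the opposite direction. The ER list held 6 to 12 falls, the cell cycle list 10 to 15 and the sterol list 8 or 9 rises when 1 library of the comparison was left out. With edgeR on the 6 libraries alone 19 cell cycle genes and 10 glycolysis genes fell, and 7 Wnt and 3 Notch genes rose. DESeq2 and limma-voom each called 4 Notch rises there. The cause of these differences was not tested, beyond fewer libraries in the leave-out fits. With 3 embryos per group at this depth, a change that did not pass is not shown to be absent.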

Other observations

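Several named genes of cell guidance and adhesion outside the lists also differed, and these were picked after their values were seen. NRP1, a receptor for semaphorins and VEGF, was at 65.1, 62.6 and 78.3 TPM in culture and 23.7, 21.5 and 24.2 TPM in ovo (log2 fold change 1.47 ± 0.13, edgeR adjusted p = 2.89e-05). Its ligand SEMA3A was at 59.0, 46.9 and 49.6 TPM against 23.2, 27.8 and 27.2 TPM (0.89 ± 0.17, adjusted p = 0.0062). The chemokine CXCL12 was at 140, 128 and 132 TPM against 40.8, 50.5 and 65.7 TPM (1.26 ± 0.18, adjusted p = 0.000834). In these 3 genes the groups were apart and the call held without any 1 library. The adhesion protein PCDH19 gave 1.79 ± 0.43 (adjusted p = 0.0181), and lost its call without embryo 5, 13 or 15 (0.0531 to 0.0911). After 24 h with DMSO, NRP1 was at 17.2 to 23.9 TPM and CXCL12 at 26.3 to 30.9 TPM, so the higher levels of 6 h were not seen there. BRINP2, a neural gene inducible by BMP and retinoic acid, went from 0 to 0.156 TPM in ovo to 1.03 to 5.37 TPM in culture (5.51 ± 1.48, adjusted p = 0.031), and lost its call without embryo 3, 5, 12, 13 or 15 (0.0578 to 0.13).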
